A study of Caenorhabditis elegans with 28 samples.

Results

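Mirtrons are miRNAs whose hairpin is a whole short intron. The spliceosome cuts both ends of the hairpin, the excised lariat is debranched, and the folded intron goes to Dicer without the Drosha step that releases most other pre-miRNAs. One strand of the duplex, the guide, is then kept by an Argonaute protein, while the passenger strand is discarded. The levels of the C. elegans mirtrons miR-62, miR-1018, miR-1019 and miR-1020 were followed here. They were chosen by name: every row of the count table whose name without its 5p or 3p ending was one of these, which gave 6 of 437 arms. Each of the 6 rows is accounted for below, namely miR-62, miR-1018, miR-1019-5p, miR-1019-3p, miR-1020-5p and miR-1020-3p. The rule used names alone, although earlier results of these data were known when it was written.

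Small RNAs were sequenced from whole larvae of N2, the wild type, and HW3527, which carries the ebax-1(tm2321) allele on chromosome IV. EBAX-1, the worm relative of mammalian ZSWIM8, is the adapter through which a Cullin-RING E3 ligase finds its substrates, and it is known for its part in miRNA decay. Both strains were hatched as synchronised L1 larvae, plated on food at 25 °C without any treatment, and collected hourly from 18 to 31 h of growth, with 14 libraries per strain and 1 library per strain and hour. Each library held pooled animals, and the mutation was not restricted to a tissue. Library totals ran from 4938126 to 13223782 counted miRNA reads, and 312 to 349 arms had a read. A set of mutant libraries, those of 28, 29 and 31 h, were singled out for their low miR-62. Their totals were 5055100, 4970366 and 6125674 reads, so each result below is also given without them where that matters. Because they were picked for low miR-62, values of miR-62 with and without them describe that choice and test nothing. In RNA from whole animals, fewer cells that hold a miRNA and less of the miRNA in each cell cannot be told apart.

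All 4 hairpins filled an intron of the WBcel235 gene annotation exactly, with no base left over at either end. The miR-62 hairpin, on the forward strand of chromosome X from 12692608 to 12692665, was the 58-base intron between exons 3 and 4 of ugt-50, a gene of the UDP-glucuronosyltransferase family. On chromosome X from 1879458 to 1879513, forward strand, the 56 bases of miR-1018 were the intron between exons 27 and 28 of Y59E1B.1, annotated as a non-coding RNA. The 69 bases of miR-1019, on chromosome I from 9361597 to 9361665, forward strand, lay between exons 5 and 6 of dyf-5, which encodes a kinase that shapes sensory cilia. For miR-1020 it was the 70-base intron between exons 6 and 7 of the protein-coding gene T16G12.1, on chromosome III from 10047746 to 10047815, reverse strand. Both 5p arms began at the first base of their intron, and the mature sequence of each 3p arm, miR-62 and miR-1018 included, ended at the last. In these hairpins the splice sites therefore coincide with an end of the annotated miRNA.

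The mirtrons differed widely in level (the plot of normalised counts by hour). A normalised count is the count divided by the library's total and multiplied by the mean total, so it is a share of all counted miRNA reads. Over the 28 libraries miR-62 averaged 2284 normalised counts, the 91st of 437 arms, and miR-1020-3p averaged 289, the 154th. miR-1018 averaged 137, the 182nd. The remaining arms were near the limit of detection, with 9.81 for miR-1020-5p and 8.96 for miR-1019-5p, although both had at least 1 read in all 28 libraries. miR-1019-3p had 0 reads in 233998335, which allows at most 3 reads, or 1.12% of the 267 reads of its 5p partner. So of miR-1019 only the 5p strand was detected, whereas the guide of miR-1020 was the 3p strand and both strands were seen.

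**Figure D1:**
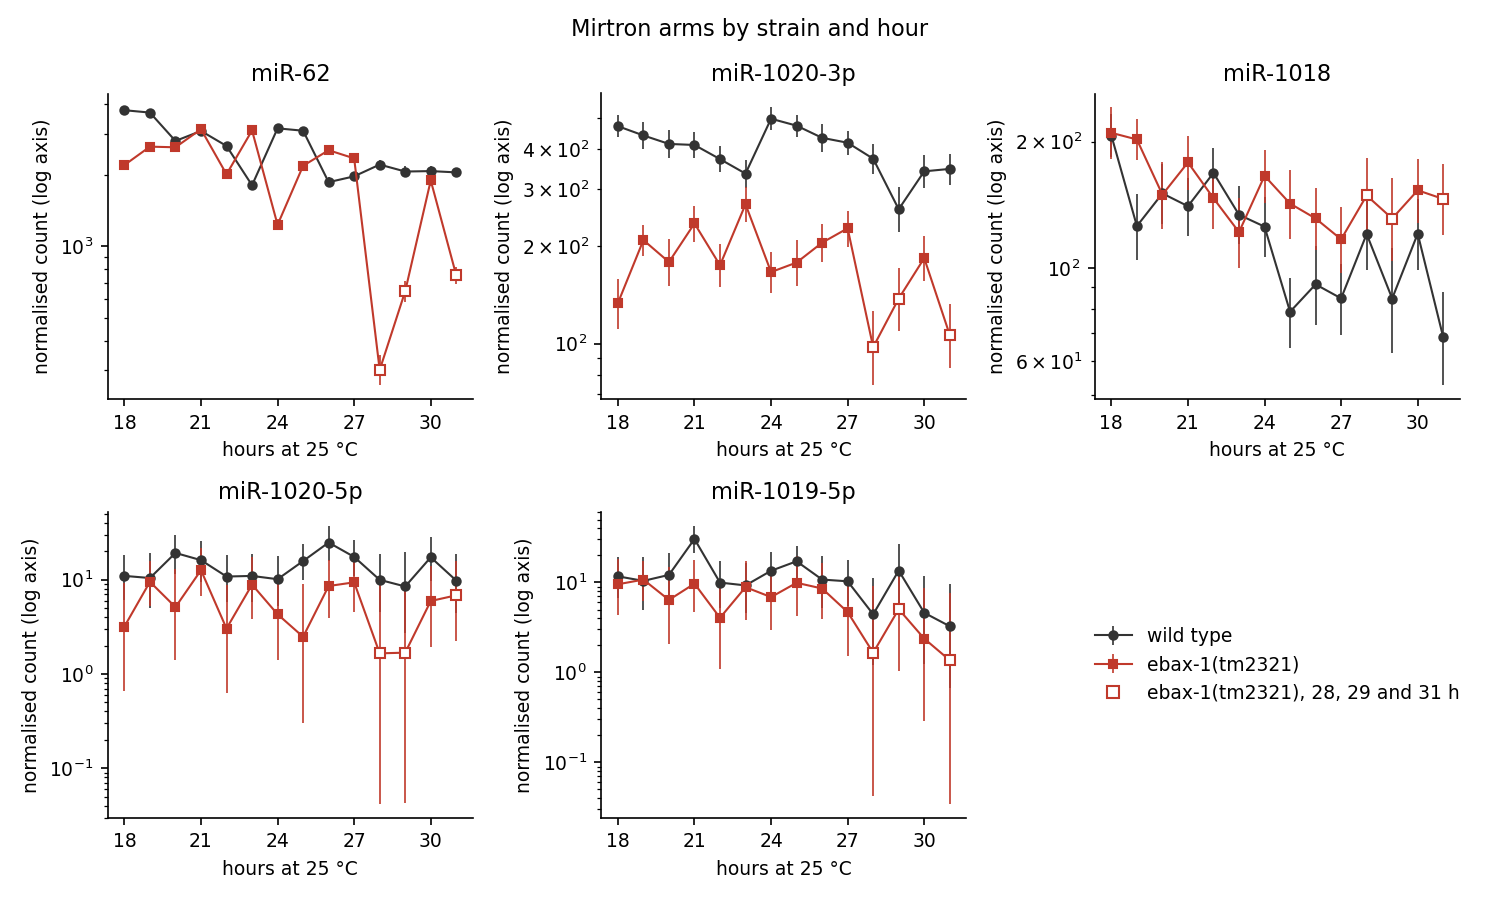
Normalised counts of the 5 detected mirtron arms (log axes) against hours of growth at 25 °C, wild type in black and ebax-1(tm2321) in red, 1 library per point, with bars for exact 95% Poisson intervals of the counts. miR-1020-3p lay lower in the mutant at all 14 hours, while the low miR-62 values of the mutant were those of 28, 29 and 31 h (open squares).

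The strains were compared at matched hours, with wild-type libraries of 18 to 28 h set against mutant libraries of 21 to 31 h, 11 of each. The mutant was shifted because the study found it to develop late. The fit was made with limma on log2(normalised count + 8) over all 406 arms with a read, with a smooth curve of hour for each strain. One test asked for any strain effect and another for the mean difference over the 11 hours. Adjusted p-values are Benjamini-Hochberg values over all arms, and an arm was called under 0.01. For any strain effect 1 of 5 tested mirtron arms was called, miR-1020-3p, against 16.5% of all arms. By the mean difference 3 of 5 were called lower in the mutant, against 22.2% of all arms, and 0 of 5 were called higher, against 8.13%. The 3 were both arms of miR-1020 and miR-1019-5p. The median of the 5 mean differences was −0.69 on the log2 scale, beside −0.07 over all arms. With so few arms these shares are a description only.

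miR-1020-3p, the guide of its hairpin, showed the clearest strain difference. In the 14 wild-type libraries it ran from 261 normalised counts at 29 h through a median of 414 to 497 at 24 h, and in the 14 mutant libraries from 97.5 at 28 h through 179 to 270.03 at 23 h. At matched hours the groups did not overlap: the highest of 11 mutant libraries, 270.03, was below the lowest of 11 wild-type libraries, 336. How many of all arms were separated in this way was not counted, and 22.2% of all arms were called lower by the mean difference. Its mean was 422 ± 48.4 (SD, n = 11) in wild type and 180.4 ± 53.2 (SD, n = 11) in the mutant, a ratio of 2.34. The mean log2 difference was −1.24 ± 0.13 (SE), with limma adjusted p = 0.00175 for any strain effect and 2.26e-05 for the mean difference. It was lower in the mutant in 11 of 11 matched hours, by 0.61 to 2.19 on the log2 scale, and in 14 of 14 hours when libraries of equal hour were set side by side. The largest gap fell at matched hour 25, where the mutant library is that of 28 h. Without the mutant libraries of 28, 29 and 31 h the mean difference was −0.99, with limma adjusted p = 0.000723, while the test for any strain effect no longer passed, with adjusted p = 0.0284. In that smaller fit 19 of 404 arms were called for any strain effect, so fewer arms passed throughout.

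miR-1020-5p, the passenger, was lower in the mutant too. It ran from 8.46 through a median of 10.95 to 24.7 normalised counts in wild type and from 1.65 through 5.52 to 12.6 in the mutant, which is 5 to 23 reads against 1 to 15 per library. These ranges overlapped. The mean log2 difference was −0.69 ± 0.13 (SE), with limma adjusted p = 0.00175 for the mean difference, and it was lower in 10 of 11 matched hours. For any strain effect the adjusted p was 0.0301, and leaving out the mutant library of 21, 22 or 23 h brought it to 0.00243, 0.00318 and 0.00584. With single libraries left out, this test stayed uncalled in 19 of 22 fits. Its highest adjusted p was 0.0949, without the wild-type library of 26 h. Without the mutant libraries of 28, 29 and 31 h the mean difference was −0.54, with adjusted p = 0.00418.

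Both strands of miR-1020 come from one intron, so their balance was compared as well. Over the matched hours the 3p strand had 5310 reads and the 5p strand 176 in wild type, a ratio of 30.2, and 1831 and 62 in the mutant, a ratio of 29.5. The 5p strand thus took 3.21% of the reads of the hairpin in wild type (Wilson 95% interval 2.77 to 3.71) and 3.28% in the mutant (2.56 to 4.18). In other words both strands were lower by about the same factor, 2.34 for 3p and 2.39 for 5p in summed normalised counts. A limma fit of log2 guide minus log2 passenger, made over 96 hairpins, nevertheless gave −0.55 ± 0.12 (SE) and adjusted p = 0.000891, where 21.9% of hairpins were called lower. That value rests on the pseudocount of 8, which is close to the whole level of the 5p strand: with a pseudocount of 1 the difference was 0.00045, with adjusted p = 0.998.

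miR-1019-5p was lower in the mutant by the mean difference, at few reads. It ran from 3.26 normalised counts at 31 h through a median of 10.6 to 30.4 at 21 h in wild type, which is 3 to 34 reads. In the mutant it ran from 1.36 at 31 h through 6.63 to 10.7 at 19 h, which is 1 to 17 reads. The ranges overlapped, although 9 of 11 wild-type libraries lay above the highest mutant one at matched hours. The mean log2 difference was −0.58 ± 0.12 (SE), with limma adjusted p = 0.00263, and it was negative in 11 of 11 matched hours, the smallest being −0.004. The test for any strain effect gave adjusted p = 0.0593. The call of the mean difference was lost without the wild-type library of 25 h, at −0.51 and adjusted p = 0.0109, and without the mutant libraries of 28, 29 and 31 h, at −0.48 and adjusted p = 0.0519. It was lost with DESeq2, at adjusted p = 0.0116, and when libraries of equal hour were compared, at −0.41 and adjusted p = 0.014.

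miR-62 did not pass either test between the strains at the lag of 3 h. It ran from 1814 normalised counts at 23 h through a median of 2439 to 3765 at 18 h in wild type, and from 301 at 28 h through 2199.9 to 3129.9 at 21 h in the mutant. The ranges overlapped, with 4 of 14 mutant libraries, those of 24, 28, 29 and 31 h, below the lowest wild-type one. Wild type averaged 2735 ± 694 (SD, n = 11) at matched hours, against 1834 ± 975 (SD, n = 11) for the mutant. The mean log2 difference was −0.81 ± 0.24 (SE), with limma adjusted p = 0.0183 for the mean and 0.0901 for any strain effect. Single hours ran from −3.32 at matched hour 25 to 0.49 at matched hour 23, with 9 of 11 negative. With single libraries left out, the mean difference stayed uncalled in 18 of 22 fits. The highest adjusted p was 0.0877, without the wild-type library of 25 h. Leaving out the mutant library of 21, 22, 23 or 27 h brought the mean difference past the threshold, with adjusted p of 0.00429, 0.00507, 0.00385 and 0.00404. Those fits keep the libraries of 28, 29 and 31 h, picked for low miR-62. The mean difference also passed with a lag of 4 h, at −0.94 and adjusted p = 0.0037, and with a minimum mean of 10, which left 264 arms, with adjusted p = 0.00595. Leaving out the mutant libraries of 28, 29 and 31 h together brought it to −0.29, with adjusted p = 0.363. The last value describes the choice of those libraries by their low miR-62.

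miR-1018 was not called between the strains, and its difference was positive. It ran from 68.4 normalised counts at 31 h through a median of 123 to 207 at 18 h in wild type and from 117 at 27 h through 148 to 209.8 at 18 h in the mutant. These ranges overlapped. The mean log2 difference at matched hours was 0.18 ± 0.07 (SE), higher in 6 of 11 hours, with limma adjusted p = 0.0759 for the mean and 0.101 for any strain effect. When libraries of equal hour were compared instead, it was higher in the mutant in 11 of 14 hours and passed, with a mean difference of 0.36 and adjusted p = 0.00105. It passed with DESeq2 as well, at 0.37 and adjusted p = 0.0065. Without the mutant libraries of 28, 29 and 31 h the difference was 0.05, with adjusted p = 0.723.

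**Figure D2:**
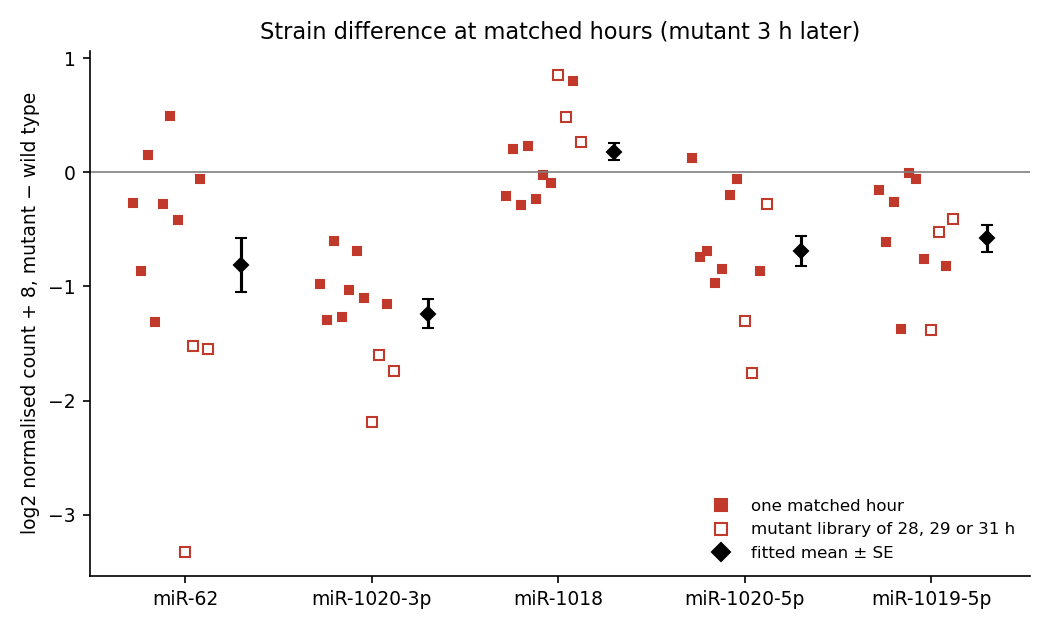
Log2(normalised count + 8) of the mutant minus wild type for each of the 11 matched hours, in order of hour from left to right within an arm, with the fitted mean ± SE as black diamonds. All 11 values of miR-1020-3p lie below 0, and the lowest value of miR-62 is −3.32 in the mutant library of 28 h (open squares mark the mutant libraries of 28, 29 and 31 h).

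Whether the strain difference changed over the hours was asked of the same fit. With limma 0 of 5 mirtron arms passed, at adjusted p from 0.344 to 0.687, and 0 of 5 had an unadjusted p under 0.05, where 0.985% of all arms were called.

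Levels were then followed over time within each strain, using a straight line plus a wave of 7 h, the period of larval molting cycles used by the study. In wild type miR-1018 fell over the 14 hours, by 0.09 ± 0.02 (SE) on the log2 scale per hour with limma adjusted p = 0.000641. Its 207 normalised counts at 18 h and 68.4 at 31 h were the highest and the lowest wild-type values. It was the 1 of 5 arms called as falling, against 16.8% of all arms. For miR-62 in wild type the slope was −0.06 ± 0.02 with adjusted p = 0.0142, and it was −0.08 with adjusted p = 0.000388 without the wild-type library of 23 h. The slopes of miR-1019-5p, miR-1020-3p and miR-1020-5p in wild type were −0.06, −0.02 and 0.02, with adjusted p from 0.138 to 0.587.

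In the mutant 0 of 5 arms were called for a trend with limma, where 9.97% of all arms were called as falling. At an unadjusted p under 0.05 there were 3, miR-1019-5p, miR-1018 and miR-62, with slopes of −0.06, −0.03 and −0.14 per hour and adjusted p of 0.029, 0.116 and 0.111. The 2 strands of miR-1020 had slopes of −0.04 for 3p and −0.01 for 5p, and both turned positive, at 0.02 and 0.01, without the libraries of 28, 29 and 31 h. The smaller slope of miR-1018 in the mutant was not shown to differ from that of wild type. The difference of slopes was 0.06 ± 0.02 per hour, with adjusted p = 0.151 and unadjusted p = 0.0141. For miR-62 the slopes differed by −0.07 ± 0.06, with adjusted p = 0.678. With limma 0 of 5 arms passed this test of slopes, 1 of 5 had an unadjusted p under 0.05, and 2.71% of all arms were called.

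No mirtron arm was called for a 7 h rhythm in either strain with limma. In wild type 0 of 5 passed, where 7.91% of all arms did, and 1 of 5, miR-1020-3p, had an unadjusted p under 0.05, with an amplitude of 0.21 and adjusted p = 0.105. In the mutant 0 of 5 passed, where 2.81% of all arms did, and 0 of 5 had an unadjusted p under 0.05, with amplitudes of 0.06 to 0.22. Waves of this size were not detected with 1 library per hour.

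Counts of miR-62 were 182, 385 and 553 reads in the mutant libraries of 28, 29 and 31 h. In normalised counts these were 301 (exact Poisson 95% interval 259 to 348), 647 (584 to 715) and 754 (693 to 820.03). The mutant libraries just before and between them, of 26, 27 and 30 h, held 2551, 2356 and 1901. The intervals cover counting error only, and the size of the gap tests nothing, since the 3 libraries were picked for low miR-62. The wild-type library of 29 h had the smallest total of all 28, 4938126 reads, and held 1225 reads of miR-62, or 2073 normalised counts. The mutant library of 29 h, with 4970366 reads, held 385.

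The mean log2 of these 3 libraries minus that of the 26, 27 and 30 h libraries was taken for the 203 arms with a mutant mean of at least 50, as a description with no test. miR-62 had the lowest value of all, −2.08, a place that follows from how the 3 libraries were picked. The next were miR-79-3p at −1.70 and miR-67-3p at −1.56. The other arms were widely spread: the median arm was at −0.21, the quartiles were −0.61 and 0.21, and 15 arms were below −1. miR-1020-3p, at −0.82, held place 28 from the lowest, with 97.5, 138 and 106 normalised counts in the 3 libraries against 205.4, 228 and 184 in their neighbours. miR-1018, at 0.09, held place 144, with 149, 131 and 146 in the 3 libraries. Whether the mirtrons move together cannot be told from libraries picked for low miR-62.

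**Figure D3:**
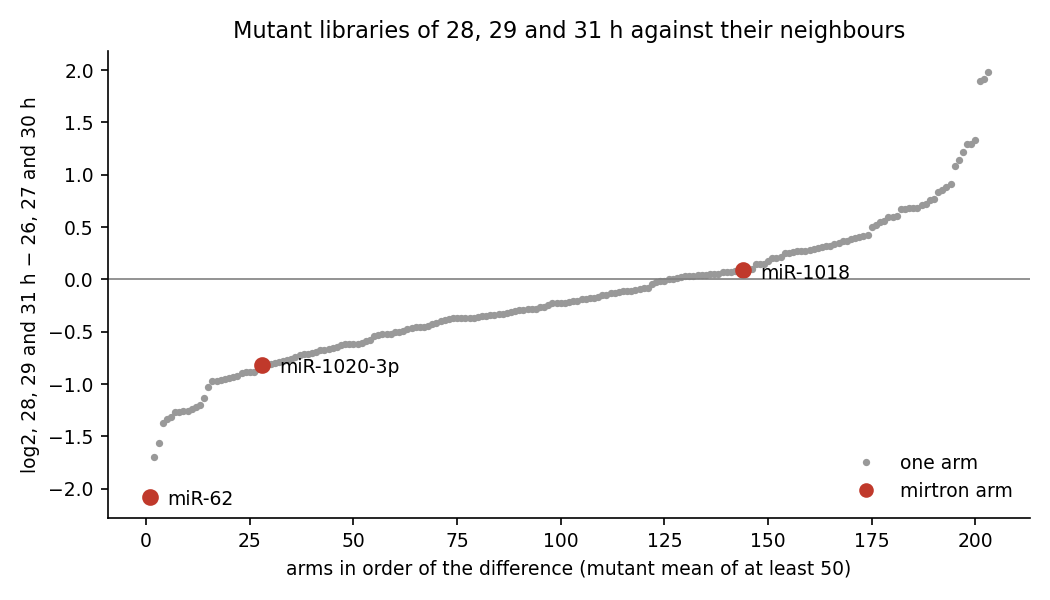
Mean log2(normalised count + 8) of the mutant libraries of 28, 29 and 31 h minus that of 26, 27 and 30 h, for 203 arms in order of the difference. miR-62, for which the 3 libraries were picked, is at −2.08, miR-1020-3p is at −0.82 and miR-1018 at 0.09.

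Markers of tissues moved in the same libraries. miR-60-3p, found mainly in intestine, was at 341 to 581 normalised counts in the 3 libraries and at 985 to 1319.7 in the libraries of 26, 27 and 30 h. The 3 neuronal markers lsy-6-3p, miR-124-3p and miR-791-5p summed to 432 to 471 and to 839.8 to 989, and the 4 epidermal markers of the let-7 family to 406421 to 436626 and to 335292 to 359030. The epidermal markers did not move as a set. In the 3 libraries and in their neighbours let-7-5p averaged 183185 and 96878, and miR-241-5p 905 and 711. By contrast miR-48-5p averaged 197501 and 200718, and miR-84-5p 44566 and 51091. None of the markers was at 0 in all libraries, and the muscle marker miR-1-3p overlapped, at 354611 to 372707 and 347938 to 481480. Their part in the low miR-62 was not tested. Between the strains miR-60-3p ran from 1188 to 2335 in wild type and from 341 to 1319.7 in the mutant. It was called lower by the mean difference, at −1.11, and so was miR-1-3p, at −0.53. The same held for 1 of 3 neuronal and 3 of 4 epidermal markers, where 22.2% of all arms were called lower. The glial marker miR-228-5p, at 0.26, was not called. The parts of these markers in the mirtron differences were not tested either. The glial marker miR-228-5p was at 83966 to 171045 in the 3 libraries and at 76345 to 90834 in their neighbours. The embryonic markers miR-35-3p to miR-42-3p, a family also known as a target of EBAX-1 and so no plain tissue marker here, summed to 7533 to 28313 in wild type and 96955 to 265615 in the mutant, without overlap.

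The relation of mirtron level to library total was computed for miR-62, miR-1020-3p and miR-1018 in the wild type, in the mutant and in the 11 mutant libraries other than those of 28, 29 and 31 h, which made 9 relations. The total is also the divisor of the normalised count, hours follow one another, and the part of hour in these relations was not tested. In the 14 mutant libraries log2 miR-62 gave Pearson's r = 0.575 and Spearman's rho = 0.534 with the total. No p is given for these, since 3 of the libraries were picked for low miR-62. Without the 2 libraries farthest from the median total r was 0.579. Within the 11 mutant libraries r was −0.033 and rho 0.0455. No p is given here either, since those 11 are what the same choice left. The libraries of 28, 29 and 31 h also had totals of rank 3, 2 and 4 from the lowest of 28, so both ranges narrow without them. In the 14 wild-type libraries r was 0.438 (two-sided permutation p = 0.114, adjusted 0.235) and rho 0.38 (permutation p = 0.181, adjusted 0.408), and r was 0.335 without the 2 farthest libraries.

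For miR-1020-3p in wild type r was 0.708 (permutation p = 0.00682, adjusted 0.0499) and rho 0.618 (permutation p = 0.0214, adjusted 0.157). It dropped to 0.402 without the 2 libraries farthest from the median total, one of them the shallow library of 29 h. In the mutant r was 0.553 (permutation p = 0.0291, adjusted 0.0872), 0.609 without the 2 farthest libraries, and rho was 0.547 (permutation p = 0.0464, adjusted 0.157). The adjustment took 0.0499 and both values of 0.157 from miR-62 in the 14 mutant libraries, which include those picked for low miR-62. These adjusted values therefore test nothing for miR-1020-3p. Within the 11 mutant libraries r was 0.167 and rho 0.155 (permutation p = 0.609 and 0.649, adjusted 0.685 and 0.73). For miR-1018 in wild type r was 0.322, and in the mutant 0.446, with rho 0.323 and 0.266 (adjusted permutation p from 0.235 to 0.538), and 0.479 and 0.0398 without the 2 farthest libraries. Within the 11 mutant libraries its r was 0.421 and rho 0.164, with adjusted permutation p of 0.336 and 0.73. For miR-1020-3p the lowest wild-type value, 261 in the shallowest library, was above 13 of 14 mutant values.

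**Figure D4:**
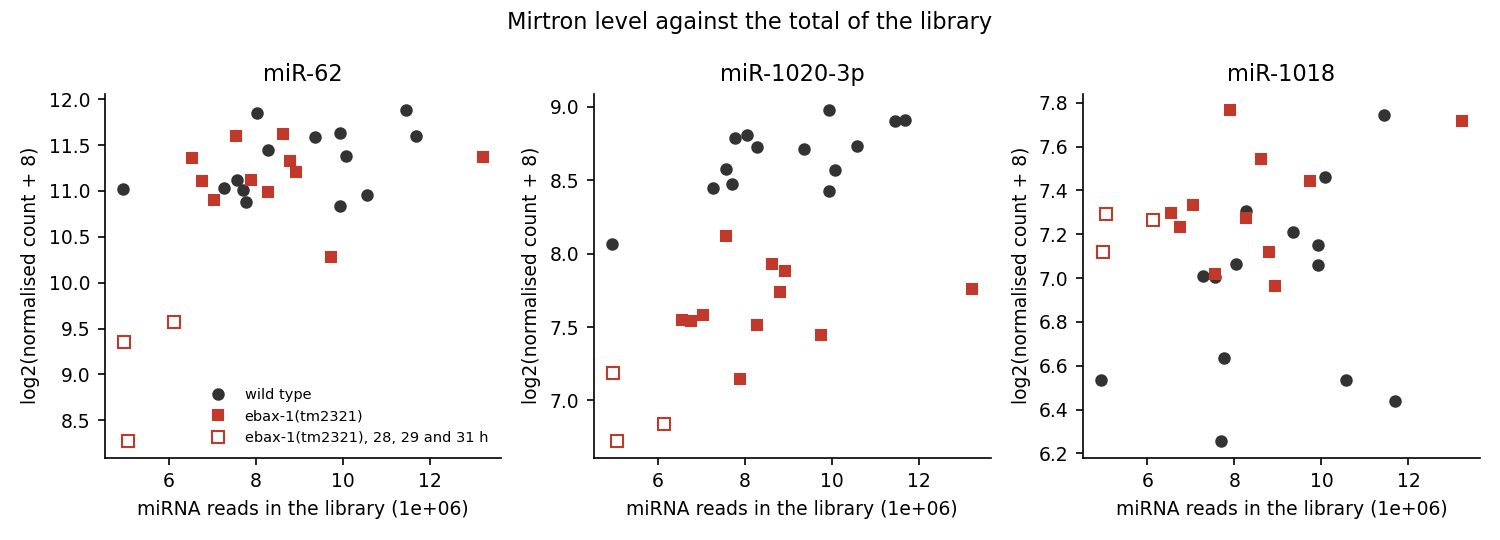
Log2(normalised count + 8) of miR-62, miR-1020-3p and miR-1018 against the total of counted miRNA reads in the library (in units of 1e+06), 14 wild-type and 14 mutant libraries. The open squares at the lower left are the mutant libraries of 28, 29 and 31 h, and the wild-type library of 29 h at an equal total holds 2073 normalised counts of miR-62.

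The arms most like each mirtron over the 28 libraries, once the mean of each strain was taken off, were found among 209 arms with a mean of at least 50. This is a description, since libraries share their normalisation and hours are serial. For miR-62 they were miR-232-3p (r = 0.948), miR-231-3p (0.929) and miR-46-3p (0.911), and over the 25 libraries without the mutant ones of 28, 29 and 31 h these were 0.882, 0.893 and 0.762. For miR-1020-3p the first was miR-62 itself (0.803), then miR-63-5p (0.792) and miR-4816-3p (0.789), a strand of another hairpin that fills an intron. Over 25 libraries these were 0.667, 0.692 and 0.606. For miR-1018 they were miR-229-3p (0.723), miR-72-5p (0.71) and miR-57-5p (0.705), and its own correlations with miR-62 and miR-1020-3p were 0.212 and 0.0445. The median r with the other arms was 0.223 for miR-62, 0.177 for miR-1020-3p and 0.114 for miR-1018. miR-62 and miR-1020-3p were thus more alike than most pairs, less so without the 3 libraries picked for low miR-62. The correlations of miR-1018 with them were those of an ordinary arm.

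In the annotation 19 hairpins of the table filled an intron of 52 to 70 bases, 15 besides the 4 mirtrons followed here, and all had both ends at the intron ends. Of 26 arms in these hairpins, 13 had a read in all 28 libraries and 2 had none in any library. Of the other 20 arms 19 were tested, and 3 were called for any strain effect, 2 lower and 1 higher in the mutant, where 16.5% of all arms were called. miR-4816, the intron of T09B4.2, was lower on both strands, with −0.78 ± 0.08 (SE) for miR-4816-3p (limma adjusted p = 0.00178) and −0.9 ± 0.10 for miR-4816-5p (adjusted p = 0.00372). Its 3p strand averaged 1749 ± 194 (SD, n = 11) normalised counts in wild type and 1042 ± 266 (SD, n = 11) in the mutant. So miR-4816 and miR-1020 were both lower in the mutant on both strands.

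Y59E1B.1, the host of miR-1018, held 10 further intron-filling hairpins with 14 arms. Of these 13 were tested and 1 was called for any strain effect, where 16.5% of all arms were called. That arm was miR-4807, at 32.3 ± 11.3 (SD, n = 11) normalised counts in wild type and 112 ± 19.1 (SD, n = 11) in the mutant, with a mean log2 difference of 1.61 ± 0.09 (SE) and limma adjusted p = 3.62e-05. In the same matched libraries miR-1018 averaged 130 ± 37.7 for wild type, against 144 ± 18.2 for the mutant. The arms miR-2220-3p, miR-4810b-3p, miR-4810a, miR-4809-3p and miR-4808-3p of the same host had mean differences from −0.19 to 0.34 and were not called. The introns of one host thus gave both called and uncalled arms, and the difference between miR-4807 and miR-1018 was not tested. Among arms in longer introns of a gene on the same strand, 11 of 96 tested arms were called, 9 lower and 2 higher, against 16.5% of all arms. The median difference of the 96 was −0.13, beside −0.07 over all arms. Of these 11, the 10 with a mean of at least 50 ran from −1.03 for miR-1829c-5p to 1.27 for miR-253-3p, and the others were miR-1829a-3p, miR-71-3p, miR-2-5p, miR-229-5p, miR-254-3p, miR-1830-3p, miR-1829b-5p and miR-71-5p.

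**Figure D5:**
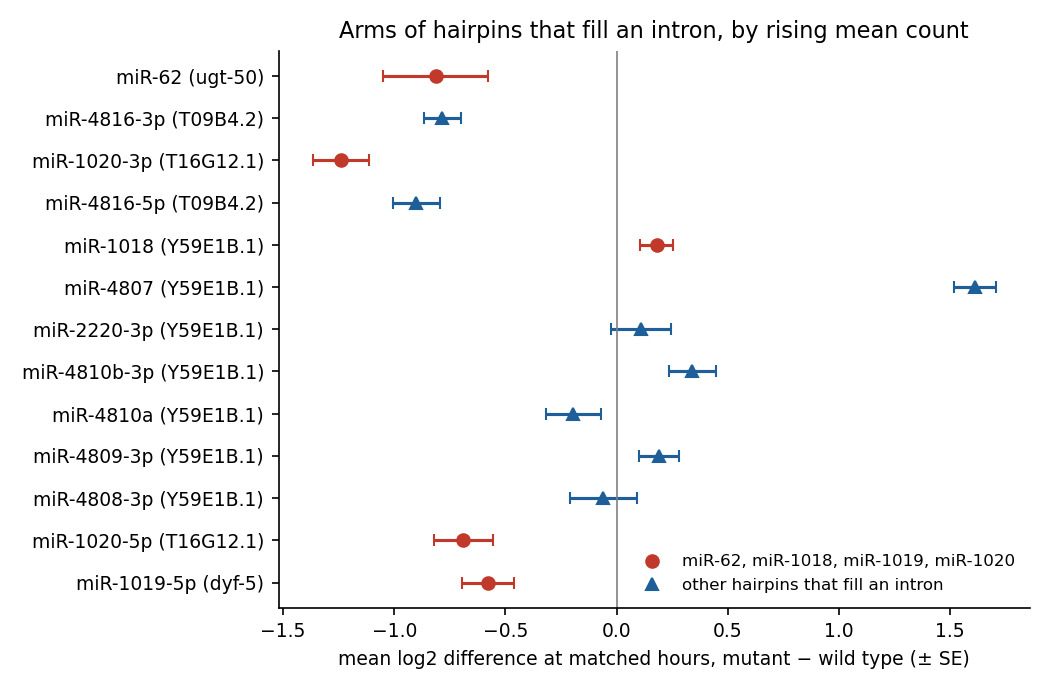
Mean log2 difference at matched hours, mutant minus wild type, with its SE, for the 13 arms of intron-filling hairpins that had a read in all 28 libraries, ordered by mean normalised count with the most abundant at the top and with the host gene in brackets. The arms of miR-1020 and miR-4816 lie below 0 and miR-4807 lies at 1.61, while miR-1018 of the same host gene lies at 0.18.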

How the data were processed

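Counts as deposited were whole numbers of reads for 437 miRNA arms in 28 libraries, with strain and hour taken from the labels. The authors prepared libraries with an adapter-ligation kit and gel selection, trimmed adapters, aligned reads with Bowtie through QuasR to ce10, allowing many hits per read, and counted same-strand reads whose 5′ end was near that of a miRBase arm. The sources used here give no tool versions. The deposited log2 values are the authors' counts scaled to the mean library total, with a pseudocount of 8, which compresses differences of rare arms. Total scaling makes every arm a share. Recomputed log2 values matched within 5e-04.

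Fits used limma 3.58.1 in R 4.3.3 on the deposited log2 values. The model, a cubic spline over matched hours (6 components) for each strain, had 14 coefficients and 8 residual degrees of freedom in 22 libraries. Trends and 7 h waves were fitted in 14 libraries per strain, where 392 arms in wild type and 391 in the mutant had a read. Permutations (scipy 1.17.1) numbered 100000. Alternatives used edgeR 4.0.16 and DESeq2 1.42.0, on counts, and other lags, splines, scalings, pseudocounts, minimum means, thresholds and periods. Calculations were checked on simulated counts. Hours are single libraries and no label names replicate cultures, so a p-value reflects how single libraries scatter about the fitted curve, possibly for technical reasons, and strain and culture cannot be told apart. Counting intervals and floors of 3 counts (1.90 to 5.08 normalised counts) cover counting error only.

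Hairpin positions come from the Ensembl annotation of WBcel235, in which 424 of 437 arms (240 of 247 hairpins) were found by name; a hairpin filled an intron when both ends lay within 5 bases. Named arms are all rows of the 4 mirtrons, the 3 arms most like each mirtron arm with a mean of at least 50, the 3 with the lowest values in the mutant libraries of 28, 29 and 31 h, and called intronic arms. The members, lists and tests were chosen with earlier results of these data known. Sequences were not used here.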

Additional observations from a re-analysis of the deposited data

How the results depend on the processing

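The count of mirtron arms called for any strain effect, 1, became 2 with a lag of 4 h, with 4 spline components or at a threshold of 0.05, and 0 without the mutant libraries of 28, 29 and 31 h. It was 1 to 2 when single libraries were left out, and 1 under all other alternatives, edgeR and DESeq2 included. The second arm was miR-1020-5p. The count by the mean difference was 2 to 4. The wild-type trend count, 1, became 2 with a 6 h period or a threshold of 0.05, and was 1 to 2 when single libraries were left out, 2 without that of 23 h. The mutant trend count became 1 at 0.05. The arm ratio of miR-1020 was 0.00045 with a pseudocount of 1 (adjusted p = 0.998) and −0.45 without the mutant libraries of 28, 29 and 31 h (adjusted p = 0.0187), and −0.60 to −0.46 with single libraries left out. Without those 3 libraries the mutant slopes of miR-1020-3p and miR-1020-5p were 0.0183 and 0.0129, the slope differences of miR-1020-3p and miR-62 were 0.0385 and 0.041, and r of miR-62 with the total was −0.033 in the mutant. That r was 0.579 without the 2 libraries farthest from the median total, and the 3 libraries were picked for low miR-62. Leaving out single libraries, the mutant slope of miR-1020-5p was −0.0238 to 0.00634. The matched hour as a block changed no call of the mean difference.

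At 1 to 34 reads per library, differences of miR-1019-5p and miR-1020-5p below the counting error of single libraries were not detectable, and rhythm was sampled once per hour. Total scaling placed the median arm at −0.07 and TMM at −0.01, and no direction of a mean mirtron difference between the strains changed with scaling. Library totals and the intestinal and neuronal markers were lower in the mutant libraries of 28, 29 and 31 h than in those of 26, 27 and 30 h, and their parts were not tested.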
